A study of Drosophila melanogaster with 3 samples.

Results

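The regions described here are the CG9609-GFP binding peaks whose highest point, the summit, lay from the transcription start site (TSS) itself to 500 bp downstream of it. They number 343 of the 3747 peaks that the authors kept as reproducible across replicates, and 343 of the 2020 peaks (17.0%) with a summit within 500 bp of a protein-coding TSS. Each summit was assigned to its nearest TSS among all protein-coding transcripts, and its side was read on that gene's strand. The choice used position and the reproducible set only, with no motif and no signal cut-off of its own. Signal may enter through the reproducible set, whose lowest signal value was 90.0. The other 1677 promoter peaks, with summits upstream of the nearest TSS, and the 1727 peaks outside promoters serve as comparison.

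Chromatin immunoprecipitation and sequencing (ChIP-seq) was done on whole Drosophila melanogaster embryos of mixed sex, collected over 0 to 24 h, so that each library pools animals of many ages. The embryos came from 1 transgenic line that stably expresses CG9609 carrying green fluorescent protein (GFP) at its C-terminus, and chromatin sheared by sonication to 200 to 800 bp was pulled down with an anti-GFP antibody. All 3 samples formed a single group, CG9609-GFP, with biological replicates 1, 2 and 3. The promoter that drives the fusion is not given in the sources used here, control libraries were not analysed here, and peak lists hold no expression by which stage or cell type could be checked.

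A TSS is the base where RNA polymerase II begins a transcript. The core promoter spans that base, and beyond it lie the 5′ untranslated region (UTR), often a first intron, and the coding sequence. Many Drosophila housekeeping genes start transcription at several nearby TSSs and are arranged head to head with a gene on the opposite strand, so that 1 stretch of open chromatin can lie downstream of one TSS and upstream of another. RefSeq lists the product of CG9609 as an uncharacterized protein.

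Short sequences around the summits of 6 members show the motifs that the results below return to. They are given 5′ to 3′ on the gene's strand, from the RefSeq genome of the dm6 assembly, with the motif in capitals. RpL7, chr2L:10200979-10201008 on the plus strand, and RpL30, chr2L:19009261-19009290 on the minus strand, hold Motif 1, a core promoter motif of Drosophila housekeeping genes. In RpL7 it reads on the opposite strand.
RpL7: ctccgcggccaGTGTGACCgtttggccgat
RpL30: atccccccgtcGGTCACACcaacacaaacg
RpS29, chr3R:9778046-9778075 on the plus strand, holds the DNA replication-related element (DRE), the site of the factor DREF.
RpS29: atcgtggaaaaTATCGATActgccaccccc
CG9399, chr3R:9574209-9574238 on the minus strand, and E(z), chr3L:10638112-10638141 on the minus strand, hold Motif 7, another core promoter motif of this species.
CG9399: acaacgtttacCAACACTAgaatttgagat
E(z): gctgcgtttctCAACACTAcacaaagcagg
eIF4A, chr2L:5982431-5982460 on the plus strand, holds an 8-base word that shares 7 of its letters with that Motif 7 match.
eIF4A: ctggtgttaggCAACACTGgcgccactgtt
Measured from the TSS, the middle of the capitals lay 10.5 bp upstream in RpL7, 30.5 bp downstream in RpL30, 18.5 bp downstream in RpS29, 12.5 bp upstream in CG9399, 3.5 bp downstream in E(z) and 82.5 bp downstream in eIF4A.

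Most downstream summits lay close to the TSS. Their median distance was 64 bp, with quartiles at 21 and 163.5 bp and a range of 0 to 491 bp. At the TSS base itself were 7 summits, 97 lay within the first 25 bp and 153 (44.6%) within 50 bp. A further 52 lay at 51 to 100 bp, 63 at 101 to 200 bp and 75 at 201 to 500 bp. Upstream summits had a median distance of 97 bp, with quartiles at 52 and 188 bp.

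**Figure D1:**
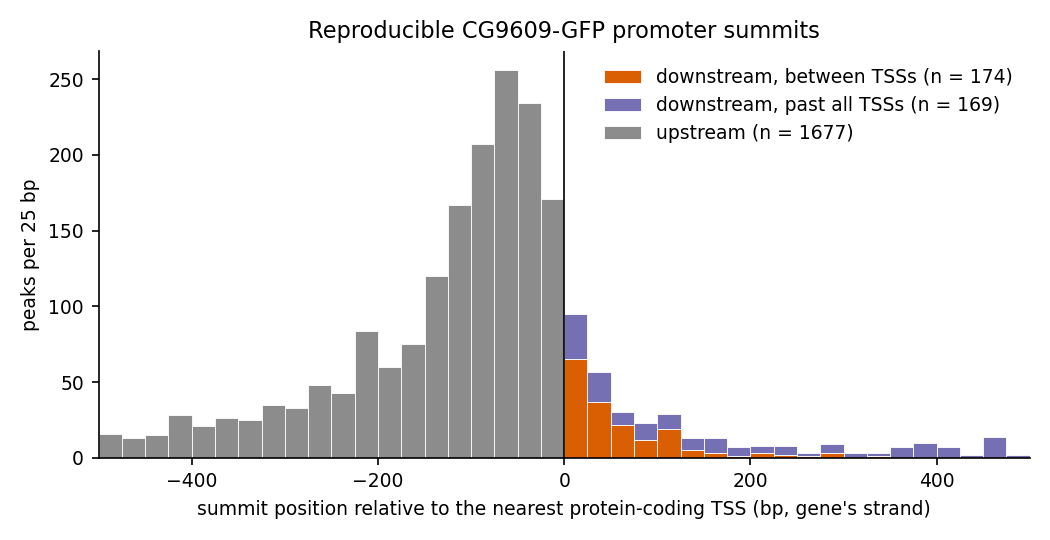
Counts of reproducible promoter summits per 25 bp (y axis) against their position relative to the nearest protein-coding TSS in bp (x axis, downstream to the right). Downstream summits are stacked by whether they are also upstream of another TSS (group between TSSs, n = 174) or not (group past all TSSs, n = 169). The summits to the left are the 1677 upstream ones. Downstream counts are highest in the first bin, 95 at 0 to 24 bp and 57 at 25 to 49 bp, and are lower, with small rises, farther out.

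At the border between the sides, the 30 members at 0 to 5 bp had a median signal of 129 and the 33 peaks at 1 to 5 bp upstream a median of 125. Rpn3, a subunit of the proteasome lid, had its summit on the TSS base with a signal of 264, and p24-1 had one 1 bp upstream with a signal of 173. At the outer limit, the 16 members within the last 50 bp had a median signal of 116 and the 18 peaks within the next 50 bp a median of 164. The signal value is the authors' own measure per peak, with no scale given in the sources used here.

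The members fell into 2 nearly equal groups by whether the summit was also upstream of another TSS. For 174 (50.7%) it was upstream of another protein-coding TSS within 500 bp, which is called facing that TSS. These members are called between TSSs here, and the name is a label. A facing TSS on the opposite strand lies on the same side of the summit as the nearest TSS. The 52 members that faced only an opposite-strand gene therefore did not lie between the nearest TSS and the facing one. The other 169 (49.3%) faced no TSS in reach and are called past all TSSs. Of the 174, 130 faced the TSS of a gene on the opposite strand, 122 faced another TSS of the same gene and 4 another gene on the same strand, and 76 faced an opposite-strand gene and the same gene, with no other kind. Among upstream peaks, 150 of 1677 (8.94%) lay downstream of a farther TSS. This split was chosen after the positions had been seen.

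The groups sat differently along the gene. Between TSSs the median summit was 39 bp downstream of the nearest TSS and 138.5 bp upstream of the TSS it faced. For the 42 members that faced only another TSS of the same gene, the median gap between these TSSs was 240 bp. No gap is given for members facing an opposite-strand gene, whose TSS lies on the same side of the summit as the nearest TSS. Past all TSSs the median was 141 bp, with quartiles at 36 and 343 bp, and 66 of the 75 members beyond 200 bp belonged to this group. The class of a member depends on the TSS annotation. With only the canonical transcript of each gene, 231 of the 343 stayed downstream, 34 became upstream peaks and 78 fell outside promoters. All 34 that changed side were between TSSs, and 70 of the 78 that fell outside were past all TSSs.

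Downstream positions were rarer among strong regions than among weak ones. Among promoter summits in the 3747 strongest regions of each replicate, 20.4%, 17.5% and 18.2% were downstream in replicates 1, 2 and 3 (18.7% ± 1.53, SD, n = 3). In the 3747 weakest regions the shares were 63.1%, 59.1% and 55.7% (59.3% ± 3.74, SD, n = 3). The groups of values did not overlap. The strong minus weak difference averaged -40.6 percentage points ± 2.73 (SD, n = 3), negative in 3 of 3 replicates, and the two-sided exact sign-flip permutation test gave p = 0.25, the smallest p that 3 replicates allow. Of the bases in the promoter windows, 55.0% lie downstream of the nearest TSS, near the share of the weak regions. In the reproducible set the share was 17.0% (95% Wilson interval 15.4 to 18.7%). Peaks are not replicates, and all such intervals cover counting error only.

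**Figure D2:**
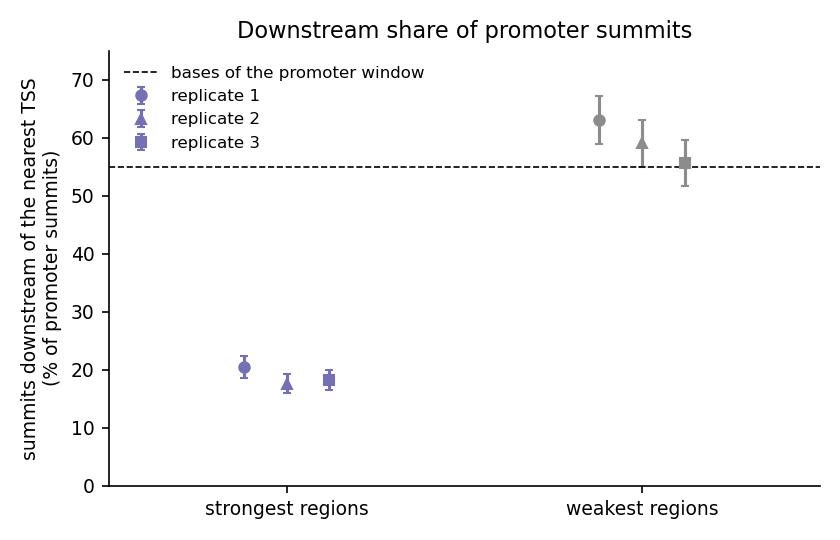
Percent of promoter summits that lie downstream of the nearest TSS (y axis) among the strongest and the weakest 3747 regions of each replicate, with 95% Wilson intervals. The strongest regions sit between 17.5% and 20.4% and the weakest between 55.7% and 63.1%, all of them above the dashed line at 55.0% for the bases of the promoter window.

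In the list called on pooled replicates, 3149 of 7719 promoter summits (40.8%) were downstream, and 343 of those 3149 (10.9%) were in the reproducible set, against 1677 of 4570 upstream regions (36.7%). Over the whole pooled list 12.9% of regions were in the reproducible set, and outside promoters 8.09%. The groups of downstream regions differed in this too, with 174 of 668 between TSSs (26.0%, 95% Wilson interval 22.9 to 29.5%) and 169 of 2481 past all TSSs (6.81%, 5.89 to 7.87%). Among downstream summits, those between TSSs made up 43.5%, 47.9% and 51.1% in the strongest regions of replicates 1, 2 and 3, and 12.8%, 15.3% and 11.3% in the weakest.

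Members past all TSSs had the lower signal. In the reproducible set the median signal was 135 for all members (quartiles 107 and 209), 159 between TSSs and 121 past all TSSs, against 151 for upstream peaks. Signal was compared between replicates as a percentile of each replicate's strongest regions, where 100 is the strongest. In replicates 1, 2 and 3 the median percentile of downstream summits was 45.5, 44.4 and 47.5, and that of upstream summits 61.8, 54.0 and 55.6. The difference averaged -11.3 ± 4.39 (SD, n = 3; two-sided exact sign-flip permutation test, p = 0.25) and was negative in 3 of 3 replicates. In the reproducible set the same difference was -9.02, and with only canonical TSSs it was -4.83. It was -3.24, -3.14 and -1.01 among peaks found in both other replicates when replicates 1, 2 and 3 were left out, sets that keep fewer weak peaks by construction.

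Split by group, the replicate medians were 63.6, 57.2 and 58.1 between TSSs and 33.5, 32.7 and 35.9 past all TSSs, so the groups did not overlap. The difference between them was 25.6 ± 4.04 (SD, n = 3; two-sided exact sign-flip permutation test, p = 0.25). In the reproducible set it was 23.1, and among peaks found in both other replicates it was 17.2, 12.7 and 15.7 when replicates 1, 2 and 3 were left out. Among the replicates' own strongest regions, summits past all TSSs lay 23.1 below the upstream summits (difference -23.1 ± 4.57). Summits between TSSs lay 2.54 ± 0.714 above the upstream ones (SD, n = 3 each, p = 0.25 in both, by the same exact test). These summits were classified in each replicate's list and are not the members themselves. In the reproducible set the percentile medians were 57.4 between TSSs, 34.4 past all TSSs and 53.6 upstream. The median signal was higher between TSSs in each range of distance. At 0 to 50 bp the median signal was 149 between TSSs (n = 103) and 110 past all TSSs (n = 50), at 51 to 200 bp it was 177 (n = 62) and 131 (n = 53), and at 201 to 500 bp it was 143 (n = 9) and 128 (n = 66), where few members lay between TSSs.

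**Figure D3:**
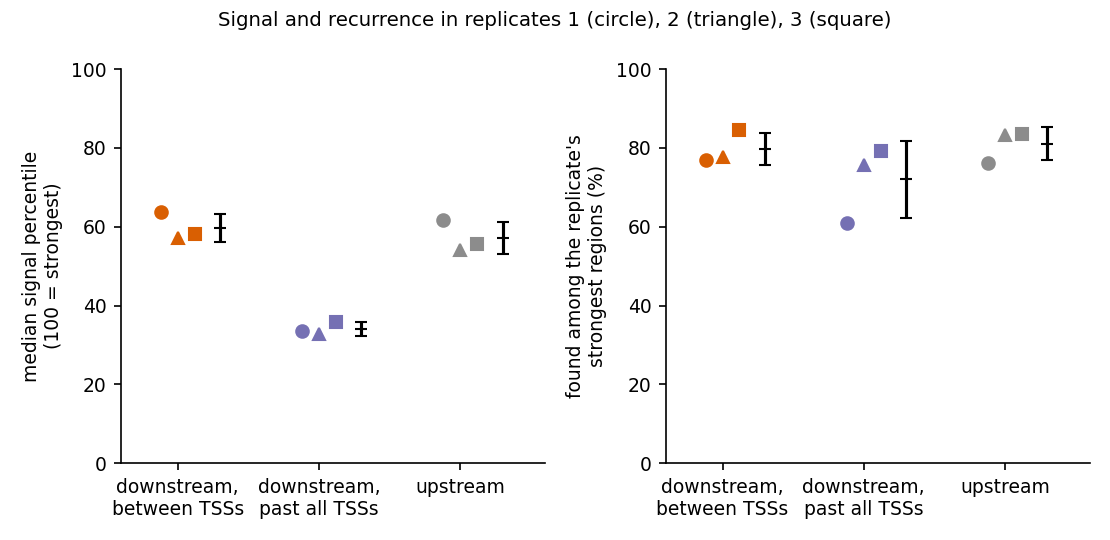
Left, median signal percentile of downstream summits between TSSs, downstream summits past all TSSs and upstream summits among the strongest regions of each replicate; right, percent of the reproducible peaks of each group found among those regions. Coloured points are the 3 replicates and black bars the mean ± SD; past all TSSs the percentiles lie between 32.7 and 35.9, below both other groups in each replicate.

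Recurrence across replicates was read as a summit within 100 bp among a replicate's 3747 strongest regions. The reproducible set was itself kept for agreement between these replicates, so its peaks recur by construction, and only groups within it are compared. Of the 343 members, 172 (50.1%, 95% Wilson interval 44.9 to 55.4%) were found in all 3 replicates, 103 in 2, 59 in 1 and 9 in none, where all reproducible peaks gave 55.4% for all 3. The share was 56.3% between TSSs (98 of 174), 43.8% past all TSSs (74 of 169) and 59.2% for upstream peaks (992 of 1677). Replicates 1, 2 and 3 held 69.1%, 76.7% and 81.9% of the members and 76.3%, 83.3% and 83.5% of the upstream peaks. The difference was -5.14 percentage points ± 3.06 (SD, n = 3; two-sided exact sign-flip permutation test, p = 0.25), and the 2 sets of values overlapped. Replicate 1 held the fewest members past all TSSs, 60.9%, where replicates 2 and 3 held 75.7% and 79.3%. Members between TSSs exceeded those past all TSSs by 16.1, 1.85 and 5.19 percentage points in replicates 1, 2 and 3 (7.70 ± 7.43, SD, n = 3; two-sided exact sign-flip permutation test, p = 0.25). Without replicate 1 the mean of that difference was 3.52 percentage points.

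A recurring member did not always keep its side. Of the members found in a replicate's strongest regions, 81.9%, 87.5% and 84.3% had the matching summit downstream of the same gene again (84.6% ± 2.80, SD, n = 3), and upstream peaks kept side and gene in 92.5% ± 1.20. Members within 50 bp of the TSS kept their side and gene in 72.0% ± 6.52, and members farther out in 94.1% ± 0.0583 (SD, n = 3 each). A summit near the TSS changes side by a smaller shift. Of the members 44.6% lay within 50 bp, against 24.2% of upstream peaks. Of the 172 found in all 3 replicates, 117 (68.0%) were downstream of the same gene in all of them. The median distance between a member's summit and its match was 12 bp.

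The summits lay mostly in 5′ UTR exons. This held for 258 members (75.2%), while 73 (21.3%) lay in introns and 12 (3.50%) in coding exons. Between TSSs 158 of 174 (90.8%) were in a 5′ UTR exon and 14 in an intron, and past all TSSs 100 of 169 (59.2%) were in a 5′ UTR exon, 59 (34.9%) in an intron and 10 in a coding exon. Beyond 200 bp 52 of 75 members were intronic. Intronic members had a median signal of 146 and 43 of 73 (58.9%) were found in all 3 replicates. In 5′ UTR exons the median was 133 and 124 of 258 (48.1%) were found in all 3, and in coding exons it was 106 with 5 of 12. The coding-exon members were at CG44812, Hakai, Got2, CG18011, uri, Asciz, Calr, Bacc, CG15531, Dek, GramD1B and Nadk1a, named after their annotation was seen. A further 11 summits also lay inside a non-coding RNA gene, among them those at CTCF and RpL37A.

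The members belonged to 334 genes, and 9 genes held 2 members each. Genes of members past all TSSs were longer, with a median length of 5970 bp, against 4079 bp for genes of upstream peaks and 2164 bp for all protein-coding genes. Genes with a member between TSSs had a median length of 2448 bp. The first intron had a median of 152 bp between TSSs, 813 bp past all TSSs, 309 bp for upstream peaks and 98 bp for all genes. The start codon lay past the first exon in 49.6% of members' transcripts, 37.9% of those at upstream peaks and 23.7% of all genes. Members were on X in 57 cases (16.6%), where upstream peaks were in 281 (16.8%), and none was on chromosome 4. Gene length and introns are parts of the annotation that the position rule also reads, so these values describe the members without a test.

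The strongest member lay at tank, with rank 28 of 3747 and a signal of 1080, on 2L from 4837705 to 4838079 (FBgn0031635). Its summit was in the 5′ UTR, 153 bp downstream and past all TSSs. In replicates 1, 2 and 3 the peak at tank had ranks 31, 35 and 25, with summits 148, 132 and 151 bp downstream. CG8360 (rank 34, 43 bp downstream) and CG9147 (rank 36, 16 bp downstream) belonged to the group between TSSs. The summit at CG9147 was 150 bp upstream of the TSS of the opposite-strand gene Fbw5. That TSS lay on the same side of the summit as the CG9147 TSS. CG8320 followed at rank 40, 102 bp downstream in an intron and facing Pex11ab.

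Next by signal came mRpL23 and RpL7. mRpL23, which encodes a large-subunit protein of the mitochondrial ribosome, had rank 69 with a signal of 707 and its summit 61 bp downstream. RpL7, a protein of the large cytoplasmic subunit, had rank 75 with a signal of 680, on 2L from 10200896 to 10201162 (FBgn0005593). The RpL7 summit was 33 bp downstream of one TSS and 63 bp upstream of both a second RpL7 TSS and the opposite-strand gene Ripalpha. In replicates 1, 2 and 3 the peak at RpL7 had ranks 83, 97 and 66 and stayed 32, 28 and 27 bp downstream. Fer2LCH, the light chain of ferritin, had rank 77, and its summit lay 186 bp downstream in an intron and 284 bp upstream of the opposite-strand gene Fer1HCH, the ferritin heavy chain. Trmt6, a subunit of a tRNA methyltransferase, had rank 116, and Elp5, a subunit of the Elongator complex, rank 153.

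Trl encodes the GAGA factor, which binds GAGAG repeats and is itself a promoter and chromatin protein. Its member had rank 180 with a signal of 449, on 3L from 14757091 to 14757321 (FBgn0013263), 141 bp downstream in the 5′ UTR and past all TSSs. In replicates 1, 2 and 3 the summit at Trl was 111, 135 and 142 bp downstream, at ranks 216, 148 and 230. The rest of the 20 strongest were CG32022, CG11309, CG8892, CG11247 (which faces Polr2H, an RNA polymerase subunit), CG4497, CG31612, rudhira, CG10383, CG13901 and CG9399. Of these 20, 16 lay between TSSs and 4 past all TSSs, namely tank, CG31612, Trl and rudhira, and 14 faced an opposite-strand gene. All 20 were found among the strongest regions of each replicate, at ranks no lower than 343, and 17 were downstream of the same gene in each. The exceptions were CG32022, CG4497 and CG9399, whose summit was upstream of the member's TSS in at least 1 replicate, for CG9399 at 6 and 15 bp upstream in replicates 1 and 2 and at 0 bp in replicate 3.

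**Figure D4:**
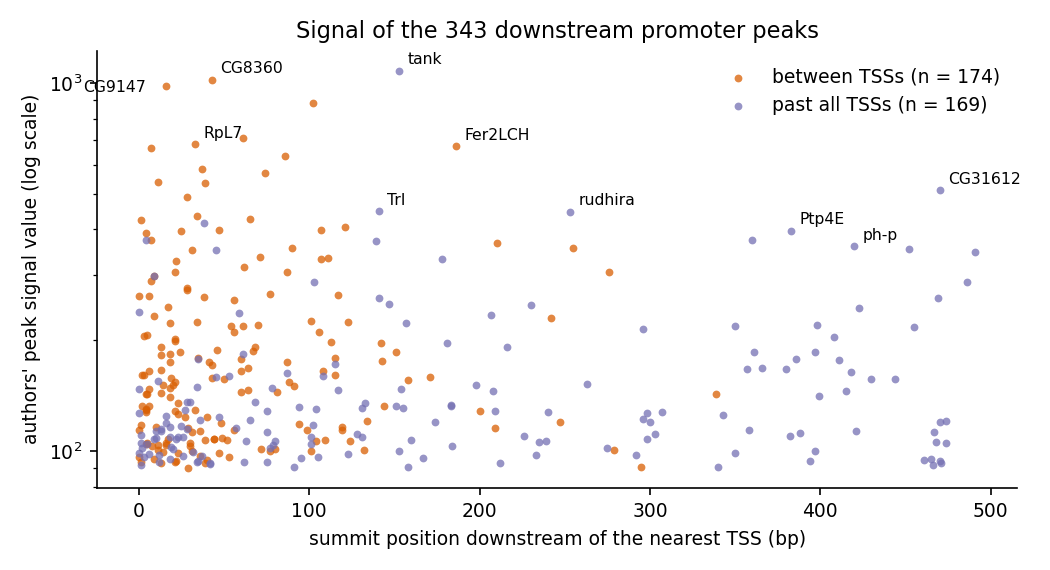
The authors' signal value on a log scale (y axis) against the distance of the summit downstream of the nearest TSS in bp (x axis), with 1 point per member, coloured by group. Points between TSSs (n = 174) crowd below 100 bp and include most of the highest signals, while points past all TSSs (n = 169) make up nearly all of those beyond 300 bp.

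Beyond 200 bp, the strongest members were deep in transcribed sequence. CG31612 had rank 141 and a signal of 511, with its summit 470 bp downstream in an intron, and 470, 466 and 446 bp downstream in replicates 1, 2 and 3. rudhira, which encodes a WD40 repeat protein, had rank 183 with an intronic summit 253 bp downstream, and 255, 263 and 253 bp in the replicates. Ptp4E, a receptor tyrosine phosphatase, had rank 255 at 383 bp, egh, a glycosyltransferase of glycolipid synthesis, rank 299 at 360 bp, and CG18622 rank 318 at 210 bp. Among the 66 members past all TSSs and beyond 200 bp, 35 (53.0%) had a summit within 100 bp in the strongest regions of all 3 replicates, where all reproducible peaks gave 55.4%.

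For 46 members the same gene was also the nearest one to an upstream peak. The median distance from the member to the nearest upstream summit of its gene was 859 bp, and 26 members had one within 1000 bp. In 16 cases the member was stronger than every upstream peak of its gene. ph-p, a Polycomb group gene whose product is a subunit of Polycomb repressive complex 1, had members at 420 bp (rank 334) and 102 bp (rank 2561) downstream, and an upstream peak of rank 11. Dp, the partner of E2F in cell cycle transcription, had a member of rank 1498 at 418 bp and upstream peaks of ranks 199 and 627. Sxl, the switch gene of sex determination, showed the reverse order, with its member at rank 1196, 397 bp downstream in an intron, and its upstream peak at rank 3438. At egh the member had rank 299 and the upstream peak rank 3287. Dp and Sxl were picked as examples after their values were seen.

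Lists of gene families were counted by how many of their promoter peaks were downstream, where all promoter peaks gave 17.0%. Cytoplasmic ribosomal protein genes had 12 of 58 (20.7%, 95% Wilson interval 12.3 to 32.8%), close to that share, with 18.0%, 18.3% and 24.2% in replicates 1, 2 and 3. They were RpL7, RpL30, RpS29, RpL26, RpS4, RpL36, RpS21, RpS18, RpL37A, RpL36A, RpS30 and RpS2. Of these, 11 lay upstream of another TSS of the same gene, and the median summit was 18 bp downstream. At RpL30, rank 297, the summit was 7 bp downstream of a TSS and 62 bp upstream of the next, and in replicates 1, 2 and 3 it was 17 bp upstream, 10 bp downstream and 6 bp downstream. RpS29 had rank 468 and a summit 21 bp downstream, with replicate summits from 14 bp upstream to 20 bp downstream. In 9 of the 12 genes, RpS29 among them, at least 1 replicate had its summit upstream of its nearest TSS, and in 7 of these it was upstream of the TSS that the member was assigned to.

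Among genes of chromatin organisation, insulator and architectural proteins had 4 of 8 promoter peaks downstream (95% Wilson interval 21.5 to 78.5%), at Trl, Dref, pita and CTCF. Dref, which encodes the factor that binds the DRE, had rank 1043 and a summit 21 bp downstream, facing RpL13 at 105 bp. pita and CTCF, both zinc finger insulator proteins, had ranks 1831 and 2225 with summits 117 and 209 bp downstream and past all TSSs. The Polycomb and trithorax group had 4 of 12 (33.3%, 13.8 to 60.9%), at ph-p with 2 members, Su(z)12 and E(z). Su(z)12 and E(z), both subunits of Polycomb repressive complex 2, had ranks 397 and 1463, with summits 111 and 13 bp downstream. With so few peaks per list these shares have wide intervals, and no test was made.

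Other lists had few members. Mitochondrial ribosomal proteins had 2 of 10 promoter peaks downstream (mRpL23 and mRpL42), translation factors 3 of 16 (eIF3h with 2 and eIF4A), oxidative phosphorylation 2 of 12 (ND-24 and ND-SGDH, both of complex I), the proteasome 1 of 4 (Rpn3) and heat shock proteins 1 of 5 (Hsc70-5, the mitochondrial Hsp70). eIF3h, a subunit of an initiation factor, had summits 276 and 20 bp downstream, at ranks 475 and 1735. In the whole replicate lists, mRpL23, mRpL42, Hsc70-5 and the 2 eIF3h members had a downstream summit in each replicate. Rpn3 had its summit upstream of the nearest TSS in replicate 3, ND-24 in replicates 1 and 2, and eIF4A in replicate 1. ND-SGDH had no matching summit in replicates 2 and 3. eIF4A had none in replicate 2 and only rank 9554 in replicate 3. RNA polymerase II, general factor and Mediator genes had 0 of 12, aminoacyl-tRNA synthetases 0 of 8, autophagy 0 of 8, splicing 0 of 5 and segmentation and homeotic genes 0 of 3. Counting error allows up to 24.2% for 0 of 12 and up to 32.4% for 0 of 8 (upper 95% Wilson limits). The strongest regions of the single replicates did hold downstream peaks at some of these genes. Autophagy genes had 2 of 7, 2 of 8 and 2 of 8 promoter peaks downstream in replicates 1, 2 and 3 (mean 26.2%). Each of these shares rests on 2 peaks, too few to set it apart from the 18.7% of all promoter peaks there. Synthetase genes had 0 of 8, 1 of 6 and 1 of 7, splicing genes 2 of 5 in replicate 1, and polymerase, general factor and Mediator genes 2 of 11 in replicate 3, with 0 in the other replicates of both lists. Segmentation and homeotic genes had 0 in each replicate. Cuticle proteins and chemoreceptors had no promoter peak on either side.

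Motifs were searched on both strands within 50 bp of the summit, and in flanking windows of the same length centred 300 bp to each side. The DRE, TATCGATA, was found at 7 of 343 downstream summits (2.04%, 95% Wilson interval 0.992 to 4.15%) and 100 of 1677 upstream summits (5.96%, 4.93 to 7.20%), where all reproducible peaks gave 2.99%. The 7 were at RpS29, RpL36, Arl5, RpL36A, Atxn7, cnc and Rab40, and 6 of them lay between TSSs. Genes named for a motif were picked after the motif counts were seen. In replicates 1, 2 and 3 the DRE was at 2.16%, 3.13% and 3.57% of downstream summits and 5.35%, 5.15% and 6.23% of upstream summits. The values did not overlap, and the difference was -2.62 percentage points ± 0.588 (SD, n = 3; two-sided exact sign-flip permutation test, p = 0.25). Past all TSSs the DRE was at 1.43% ± 0.709 of summits, and between TSSs at 4.64% ± 0.833 (SD, n = 3 each). Summits past all TSSs differed from upstream ones by -4.14 percentage points ± 0.219 (SD, n = 3). Those between TSSs differed by -1.62, 0.212 and -1.39 in replicates 1, 2 and 3, with no common sign.

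The shorter site CGATA, bound by the boundary factor BEAF-32 and contained in the DRE, was found at 74 downstream summits (21.6%) and 492 upstream summits (29.3%), where all reproducible peaks gave 20.5%. In flanking windows it was present in 14.1% and 12.7%. In the replicates the difference was -6.52 percentage points ± 2.54 (SD, n = 3; exact sign-flip permutation test, p = 0.25). The share between TSSs was 26.3% ± 2.58 and past all TSSs 18.4% ± 2.80 (SD, n = 3 each). Summits past all TSSs differed from upstream ones by -10.3 percentage points ± 2.41 (SD, n = 3). Those between TSSs differed by -4.60, 0.353 and -2.97 in replicates 1, 2 and 3, again with no common sign.

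TATAAA, the sequence of the TATA box core, was found at 36 downstream summits (10.5%) and 242 upstream summits (14.4%), where all reproducible peaks gave 15.1%. The search asked for no fixed place relative to the TSS. Sites at downstream summits had a median position 95.5 bp downstream of the TSS, with 2 of 42 before it. Sites at upstream summits had a median position 134 bp upstream. At downstream summits this share lay between that of the 5′ flank, 14.9%, and that of the 3′ flank, 7.58% (11.2% together). Upstream summits showed the same order, with 15.8% in the 5′ flank and 6.56% in the 3′ flank. In replicates 1, 2 and 3 it was 7.30%, 8.55% and 10.2% downstream and 12.6%, 14.6% and 15.5% upstream, a difference of -5.57 percentage points ± 0.404 (SD, n = 3; exact sign-flip permutation test, p = 0.25). The median GC content at downstream summits of replicates 1, 2 and 3 was 44.6%, 40.6% and 40.6%, and at upstream summits 40.6%, 37.6% and 37.6%. Summits past all TSSs exceeded upstream ones by 6.93, 4.95 and 4.95 percentage points in replicates 1, 2 and 3. For summits between TSSs the same difference was only 0.990, 0 and 0.495. The part of GC content in the motif differences was not tested. CTTTTC, the core of the TCT initiator of ribosomal protein genes, went the other way in the replicates, with a difference of 3.73 percentage points ± 1.14 (SD, n = 3; exact sign-flip permutation test, p = 0.25). It was found at 39 downstream summits (11.4%) and 153 upstream summits (9.12%), where all reproducible peaks gave 10.1%. The downstream share was close to the 10.3% of flanking windows. In replicates 1, 2 and 3, summits past all TSSs exceeded upstream ones by 3.07, 8.47 and 7.24 percentage points. For summits between TSSs the difference was 2.29, -1.93 and 2.80, with no common sign.

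Other motifs were about as common on both sides. Motif 7, CANCNCTA, was at 39 downstream summits (11.4%, flanks 3.79%) and 181 upstream summits (10.8%, flanks 3.49%), where all reproducible peaks gave 7.37%. Its difference in the replicates was -0.351 percentage points ± 1.12 (SD, n = 3), within their spread. Of 42 Motif 7 sites at downstream summits, 26 read on the gene's strand, and the middle of the motif had a median position 17.5 bp downstream of the TSS. Motif 1, GGTCACAC, was at 11 downstream summits (3.21%) and 47 upstream summits (2.80%), where all reproducible peaks gave 1.63%. It was found at RpL7, RpL30 and RpL37A, at genes of metabolism such as P5cr and Adsl, and at Vang, Tnpo, CG1307, Frl, msn and Pkn.

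**Figure D5:**
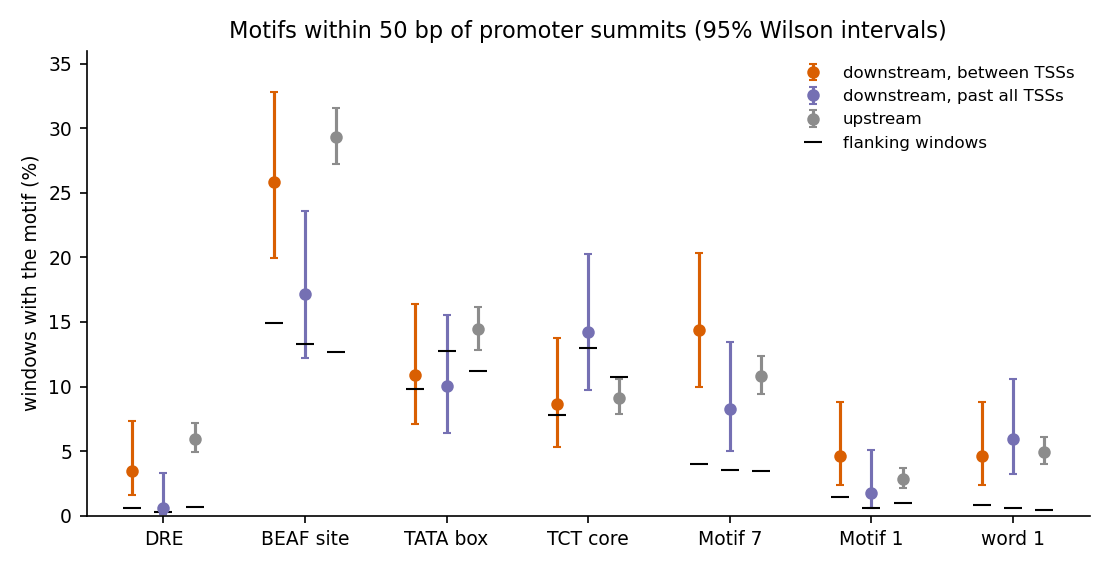
Percent of windows within 50 bp of the summit that hold each motif (y axis), for downstream summits between TSSs, downstream summits past all TSSs and upstream summits, with 95% Wilson intervals; black dashes give the flanking windows, and word 1 is the 8-base word shown above for eIF4A. In the reproducible set shown here, the DRE and the BEAF site (CGATA) are highest upstream and lowest past all TSSs. Motif 7 and word 1 stand above their flanks in all 3 groups.

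Words of 8 bases were chosen in the reproducible peaks that are not downstream, as the 10 most enriched at summits over flanks, and then counted in the members. They include TATCGATA, the DRE itself. At least 1 of the 10 was at 93 downstream summits (27.1%, flanks 15.3%) and 510 upstream summits (30.4%, flanks 12.8%), where all reproducible peaks gave 25.7%. Between TSSs the share was 33.9% against 11.5% in the flanks, and past all TSSs 20.1% against 19.2%. In the replicates the downstream minus upstream difference was -7.33 percentage points ± 0.766 (SD, n = 3; exact sign-flip permutation test, p = 0.25). Since upstream peaks helped to choose the words, their own share is not independent of the choice. The word CAACACTG was at 18 downstream summits (5.25%, flanks 0.729%), 83 upstream summits (4.95%, flanks 0.417%) and 10 summits outside promoters (0.579%), where all reproducible peaks gave 2.96%. It occurred in both groups of members, at 8 between TSSs and 10 past all TSSs, among them if, which encodes an integrin subunit, Claspin, a checkpoint protein, and the translation factor gene eIF4A.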

How the data were processed

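The deposited files are narrowPeak lists in dm6, made by the authors per replicate and on pooled replicates with background regions included, and a set thresholded by reproducibility between lists. The deposited signal value has no stated scale; no source used here gives the aligner, peak caller, thresholds or read depth, so signal was used to describe and rank peaks within a list. The dm3 lists were not used. TSSs came from Ensembl release 115 (BDGP 6.54), 13968 protein-coding genes with 19276 TSSs, and sequence from the RefSeq genome of the same assembly. Replicates are compared by their 3747 strongest regions, weak regions by the 3747 weakest, and tests are two-sided exact sign-flip permutation tests over 3 replicates. Python 3.11.15, numpy 2.4.6 and scipy 1.17.1 were used. Position, matching and motif steps were tested on simulated data. Gene lists were selected by symbol. Alternatives were other promoter windows, TSS sets, matching distances and motif windows, the stronger peaks, and leaving out each replicate; the split by facing TSSs and its alternatives were added after seeing the data. Named are the 20 strongest members, the 5 strongest beyond 200 bp, up to 3 per gene list and the peaks at the limits. The members and lists were chosen with earlier results of these data known. In 2 regions of the lists the summit offset passed the region end, and they were kept.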

Additional observations from a re-analysis of the deposited data

How the results depend on the processing

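Differences with 1 sign in the reproducible set and all 3 replicates kept their direction under every alternative run, with 1 exception. The downstream minus upstream share of the CRE motif, TGACGTCA, was -0.298 percentage points and became 0.111 with canonical TSSs. The downstream share and the share of repeated positions are percentages that cannot change sign, so they have no direction to keep. For 10 motif or word results the sign was not shared by the reproducible set and the 3 replicates, and 28 of their 96 alternatives had the other sign. No direction is drawn for them, and this criterion was set after seeing the data. Of 197 alternatives in all, those of the main comparisons moved them by less than 1 SD between replicates in 44 cases and by more in 37; the cause was not tested. The downstream share, 17.0%, was 20.9% with a window of 1000 bp and 13.0% for summits over 50 bp from the TSS. It was 9.96% without the summits that another TSS within 500 bp put in the opposite class, upstream or downstream. The share was 14.97% in the stronger 1873 peaks, 14.8% in the consensus of 3 replicates and 14.8 to 15.6% without 1 replicate. The signal percentile difference between members and upstream peaks, -9.02, was -4.83 with canonical TSSs and -3.24 to -1.01 without 1 replicate, where weaker peaks are lost by construction. A downstream position was repeated in 80.7% when summits matched within 250 bp. The DRE difference, -3.92, was -4.87 with a 250 bp window, -4.67 with canonical TSSs, -2.46 for summits over 50 bp from the TSS, -1.34 and -4.66 in motif windows of 25 and 100 bp, and -3.89 to -2.65 without 1 replicate. For CGATA, -7.76, it was -4.04 with canonical TSSs, -5.18 in 25 bp windows and -9.04 to -4.72 without 1 replicate. For TATAAA, -3.93, it was -6.48 and -2.01 with windows of 250 and 1000 bp, -3.51 for summits over 50 bp from the TSS, -3.53 in the stronger peaks, and -2.90 and -7.70 in motif windows of 25 and 100 bp. For the 10 words, -3.30, it was -2.07 and -7.68 in those motif windows, -6.90 in the stronger peaks and -6.87 to -4.71 without 1 replicate. Upstream peaks helped to choose these words, so the choice itself favoured a negative difference. The percentile difference of members between TSSs and past all TSSs, a comparison added after seeing the data, was 30.4 and 11.96 with windows of 250 and 1000 bp and 12.7 to 17.2 without 1 replicate. Differences were taken within each replicate. No paired analysis was possible because the samples form 1 group, so that no replicate block between sample groups could be fitted. Read depth is unknown, and 3 replicates cannot give a p below 0.25.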
